A study of Mus musculus with 165 samples.

Results

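The proteasome genes of differentiating PUER cells are described here as all genes of the table whose symbol follows the pattern Psma, Psmb, Psmc, Psmd, Psme, Psmf or Psmg plus a number, without the 5 pseudogenes of the same names. The rule gave 49 of 36255 genes and used no measured value. They comprise 8 alpha and 7 beta subunits of the 20S core, the 3 immunoproteasome subunits Psmb8, Psmb9 and Psmb10, the thymoproteasome subunit Psmb11, 6 ATPases of the 19S cap and 14 genes with Psmd symbols that are counted with the cap, 5 activators, the inhibitor Psmf1 and 4 assembly chaperones with Psmg symbols. Of the Psmd genes, Psmd5, Psmd9 and Psmd10 are known as chaperones that help to assemble the base of the cap rather than as parts of the finished one. All 49 reached a normalized count of 5 in at least 1 library and were tested with 17414 genes in all.

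PUER is a mouse myeloid progenitor line without a working Spi1 gene of its own, in which a fusion of PU.1 and the hormone-binding part of the estrogen receptor is switched on by 4-hydroxy-tamoxifen (OHT). RNA-Seq libraries of undifferentiated cells in IL3 (IL3 0h, 3 libraries), of cells kept in GCSF for 48 h (GCSF 0h, 3 libraries) and of 27 time points of OHT in IL3 (81 libraries) and in GCSF (78 libraries) were used. GCSF-OHT 96h, 112h and 152h have 2 libraries each and all other groups 3. GCSF 0h was taken as free of OHT by its treatment label, although its titles name OHT. GCSF replaced IL3 in all GCSF groups from 48 h before OHT, so gain of GCSF and loss of IL3 cannot be told apart. The study uses OHT in IL3 as its macrophage course and OHT in GCSF as its neutrophil course. All groups share the Spi1-null background and the transgene. IL3 was given at 5 ng/ml and GCSF at 10 ng/ml, with 200 nM OHT in IL3 and 100 nM in GCSF, so the effect of the cytokine cannot be told apart from that of the OHT dose. Part of the medium was replaced, with fresh OHT, at 40, 88 and 136 h. Each time point came from its own plate, so time and plate cannot be told apart. By the study's methods, cells were detached with trypsin at time points after the first day. Comparisons of 0 h with later days thus also differ in harvest. All libraries come from 1 cell line, and the study's methods call the replicates of a time point biological. The labels do not say how far they were grown apart, so p-values measure the spread between these libraries.

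The 26S proteasome degrades proteins that carry ubiquitin chains. Its 20S core is a stack of alpha and beta rings whose catalytic sites lie on Psmb5, Psmb6 and Psmb7, and the 19S cap recognises, unfolds and feeds in the substrate. In cells of the immune system Psmb8, Psmb9 and Psmb10 can take the places of Psmb5, Psmb6 and Psmb7. The resulting immunoproteasome is known for cutting peptides that the Tap1 and Tap2 transporter brings to MHC class I molecules, and the PA28 activator made of Psme1 and Psme2 opens the gate of the core. The immunoproteasome and PA28 genes are known to be induced by interferons and are commonly expressed in myeloid cells.

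Reads on genes ran from 14600246 to 33147945 per library, and the proteasome genes took 0.268% to 0.437% of them. Values are counts divided by a size factor per library (normalized counts), in which 1 read is worth 0.652 to 1.84. Spi1 read 4482 to 13387 in all libraries, which reflects the transgene and does not check the labels. Of the progenitor markers, Kit read at least 1042 in every library while Cd34, a defining one, was at 3 reads or fewer in 162 libraries. The neutrophil granule genes Elane and Mpo were read in every library, undifferentiated cells included. Of the macrophage markers, Adgre1 went from a mean of 8.65 in IL3 0h to 334 at IL3-OHT 168h and 255 at GCSF-OHT 168h, but the defining genes Csf1r and Fcgr1 stood at only 4.91 and 4.75 at IL3-OHT 168h. Of the markers of other cell types, Hbb-bs, Cd3e, Cd4 and Dcn were at 3 reads or fewer in every library, while Itga2b read at least 48.9, Cd79a had a median of 6.12 (highest library 19.5) and Col1a1 one of 5.32 (highest library 72.7). The study set aside the libraries of 96 and 144 h in IL3 as unlike their neighbours, and they enter here only the comparisons that name them.

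In undifferentiated cells the immunoproteasome genes stood below the subunits they replace, but not below every gene of the core and cap. Per kilobase of the principal transcript, the highest mean normalized counts were those of Psmb4 (3697), a structural beta subunit, and Psma7 (2592), an alpha subunit. The catalytic subunits stood at 2204 for Psmb5, 2291 for Psmb6 and 1358 for Psmb7, and their counterparts at 490 for Psmb8, 301 for Psmb9 and 293 for Psmb10. Psma8, a testis-type alpha subunit, stood at 84.4 per kilobase. Each immunoproteasome gene thus had a lower level per kilobase than the subunit it replaces, and this held at IL3-OHT 168h and GCSF-OHT 168h too, where Psmb8 stood at 474 and 666 and Psmb5 at 2105 and 1991.

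Psmb11, which is known from thymic cortical epithelium, was at 3 reads or fewer in 85 libraries. Its highest group was IL3-OHT 1h, with a lowest library at 21.5 and a highest at 29.6, against 4.09 to 9.16 in IL3 0h. Psme2b never read above 16.9 in any library. It is a close copy of Psme2, so its reads may be shared with Psme2 and its values are uncertain. Calls and largest differences of both genes are counted below, but they rest on few reads and no direction is concluded from them.

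**Figure D1:**
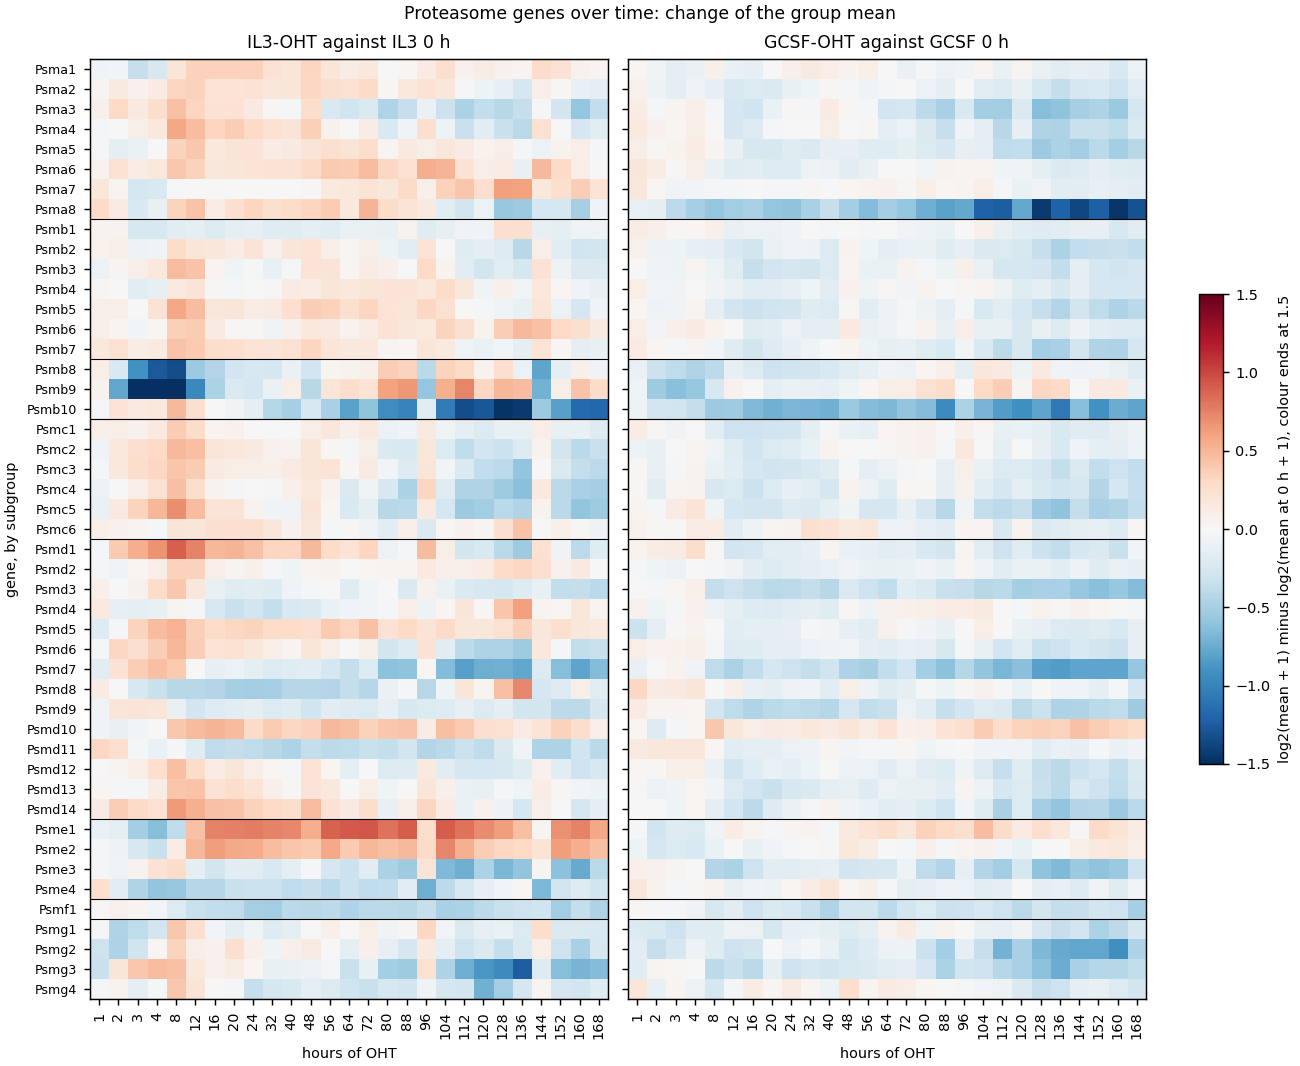
Heat map of 47 proteasome genes (rows, by subgroup, without Psmb11 and Psme2b) over the hours of OHT (columns, not to scale) in IL3 (left) and GCSF (right), with colour for log2(mean normalized count + 1) minus its value at 0 h of the same cytokine. The IL3 panel shows a warm column at 8 h, blue early cells for Psmb8 and Psmb9, a warm band for Psme1 and Psme2 from 12 h, and breaks in the columns of 96 and 144 h.

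The first comparison asked what changed when GCSF replaced IL3, before PU.1 was activated. Over 48 h in GCSF the immunoproteasome and PA28 genes rose while of the 35 genes of the core and cap 1 was called higher and 1 lower. Calls here and below are limma's, at an adjusted p below 0.05 and an absolute log2 fold change over 0.58 on the log2(normalized count + 1) scale. Of the 49 genes 6 were called higher and 1 lower, against 13.0% of all genes tested called higher and 20.7% called lower. Psmb8 read 769, 812 and 811 in IL3 0h and 1189, 1225 and 1278 in GCSF 0h. Psmb9 read 402, 455 and 365 before and 567, 652 and 638 after. Psmb10 read 400, 374 and 379 before and 690, 771 and 833 after. The groups did not overlap for any of the 3 genes, and all 3 were called higher. As the libraries are bulk RNA, a change in the share of cells of a kind and a change of RNA per cell cannot be told apart.

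The log2 fold changes in GCSF were 0.63 ± 0.074 (SE) for Psmb8 (adjusted p = 6.3e-13), 0.61 ± 0.092 for Psmb9 (6.8e-09) and 0.99 ± 0.11 for Psmb10 (4.6e-14). The largest rise was that of Psme1, from 551, 577 and 469 to 1076, 1123 and 1237 (log2 fold change 1.11 ± 0.069, adjusted p = 2.0e-29). Psme2 rose by 0.60 and Psma8 by 0.64 on the log2 scale. The call of Psmb9 was lost under upper-quartile scaling and without replicate 3, that of Psme2 under upper-quartile scaling and without replicate 2, and that of Psma8 without replicate 3. The 1 gene that fell was Psmd8, a subunit of the lid of the cap, from 2880, 2891 and 2768 to 1701, 1688 and 1887 (log2 fold change -0.70 ± 0.054, adjusted p = 9.8e-23). The constitutive catalytic subunits gave log2 fold changes of 0.26 for Psmb5, -0.14 for Psmb6 and 0.05 for Psmb7, none of them called.

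Over the first 8 h of OHT in IL3 most genes of the core and cap stood a little higher, 3 of them past the fold threshold, while Psmb8 and Psmb9 fell steeply. Of the 49 genes 3 were called higher and 3 lower, against 11.8% and 17.9% of all genes tested, and edgeR called 5 higher and 3 lower. Leaving out 1 replicate at a time gave 7 to 8 calls, and without replicate 3 there were 6 higher and 2 lower. The 3 that rose past the fold threshold all belong to the cap. Psmd1, its large scaffold, went from 1590, 1544 and 1611 to 2911, 3058 and 2870 (log2 fold change 0.90 ± 0.060, adjusted p = 3.6e-27). Psmc5, an ATPase, rose by 0.70 ± 0.057 (4.0e-21) and Psmd14, the deubiquitinase that strips chains from substrates, by 0.64 ± 0.083 (3.0e-11). For Psmd1 the lowest library at 8 h lay far above the highest at 0 h.

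By adjusted p alone, a rule added after the values had been seen, 34 of the 49 genes were higher at 8 h and 8 lower, against 25.3% and 29.6% of all genes tested. The median log2 fold change of the 35 genes of core and cap was 0.40, while the median over all genes tested was -0.08, and 31 of the 35 lay above 0. With upper-quartile scaling the counts by adjusted p alone were 32 and 8, with edgeR 35 and 7. Psmb5 read 2026, 1872 and 2046 in IL3 0h and 2859, 3105 and 2897 at 8 h, a log2 fold change of 0.58 ± 0.062 that fell just under the fold threshold (adjusted p = 8.1e-15). Psmb6 changed by 0.35 and Psmb7 by 0.42 on the log2 scale (adjusted p = 8.4e-08 and 9.2e-10), also short of the threshold. Of the core and cap 2 genes were lower by adjusted p alone, Psmd8 (log2 fold change -0.42) and Psmb1 (-0.16), as was the activator Psme4 (-0.56).

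Psmb9 fell from 402, 455 and 365 in IL3 0h to 114.8, 76.9 and 100.0 by 4 h, and its libraries of 8 h read 150, 119 and 104. Psmb8 fell from 769, 812 and 811 to 376, 308 and 310 by 4 h, and its libraries of 8 h read 308, 329 and 310. Neither gene's libraries at 4 or 8 h reached those at 0 h. At 8 h the log2 fold changes were -1.72 ± 0.092 for Psmb9 (adjusted p = 1.6e-34) and -1.33 ± 0.074 for Psmb8 (2.1e-33). Psmb10, the third immunoproteasome subunit, went the other way: 400, 374 and 379 at 0 h and 520, 548 and 556 at 8 h, a log2 fold change of 0.49 ± 0.11 (adjusted p = 5.4e-05) that did not pass the fold threshold. Psme1, from 551, 577 and 469, read 385, 314 and 323 by 4 h, still below its start by 8 h (log2 fold change -0.38), which did not pass the fold threshold. The other gene called lower was Psmb11 (9.16, 4.09 and 8.27 against 2.76, 2.14 and 0.952), a change of a few reads whose call was lost with a pseudocount of 0.5, with no filter on low values and without replicate 1 or 3.

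**Figure D2:**
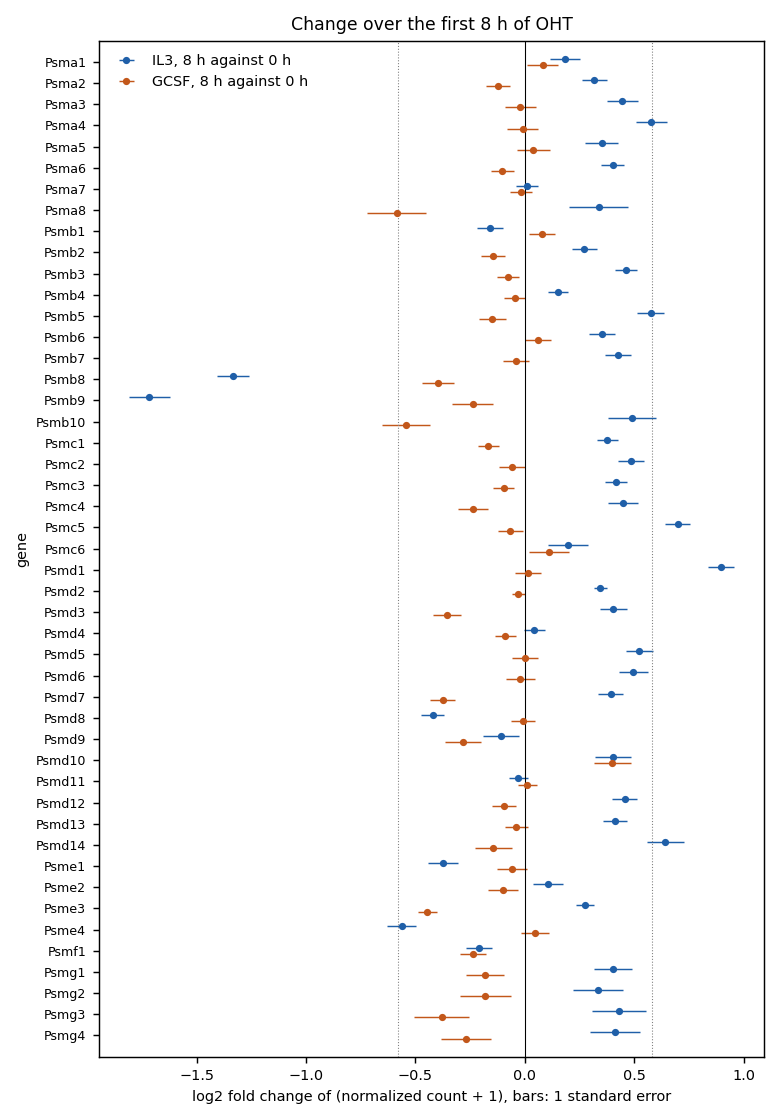
Log2 fold change from 0 to 8 h of OHT of 47 proteasome genes in IL3 (blue) and GCSF (orange) with bars of 1 standard error, with dotted lines at the fold threshold of 0.58. In IL3 most points lie right of 0 with Psmd1 at 0.90, and Psmb8 and Psmb9 stand alone at -1.33 and -1.72, while the GCSF points lie closer to 0.

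In GCSF the same 8 h of OHT moved the proteasome genes little. By limma 0 genes were called higher and 1 lower, against 5.39% and 4.01% of all genes tested (unadjusted p below 0.05: 1 higher and 18 lower). The share of all genes with an unadjusted p below 0.05 was not computed, so nothing is read from such counts here or below. The 1 gene called was Psma8, at a log2 fold change of -0.58 ± 0.13 (adjusted p = 0.00020), with all 3 libraries at 8 h below those at 0 h. That call was lost with edgeR, with a pseudocount of 5 and without replicate 3, and 2 genes were called without replicate 1. Psmb8 read 1189, 1225 and 1278 in GCSF 0h and 956, 920 and 926 at 8 h, a log2 fold change of -0.40 (adjusted p = 3.8e-06). For Psmb9 the log2 fold change was -0.24 (0.035) and for Psmb10 -0.54 (2.2e-05). The constitutive counterparts Psmb5, Psmb6 and Psmb7 stood at -0.15, 0.06 and -0.04 on the log2 scale. Among the GCSF time points Psmb9 was lowest at 3 h, at 401 ± 11.9 (SD, n = 3). The same GCSF 0h libraries enter the comparison of GCSF pre-treatment with the opposite sign, so a gene that rose there and fell here rests on those 3 libraries both times.

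Whether the change over 8 h differed between the cytokines was tested with the interaction contrast, GCSF minus IL3, which was added after the values had been seen. Of the 49 genes 3 were called higher and 14 lower, against 16.0% and 11.4% of all genes tested, and by adjusted p alone 6 and 32, against 24.9% and 20.6%. The median over the core and cap genes was -0.47 and that over all genes tested 0.08. The strongest differences were those of Psmb9 (log2 difference 1.48 ± 0.13, adjusted p = 6.0e-19), Psmb10 (-1.03 ± 0.16, 7.4e-09) and Psmb8 (0.94 ± 0.10, 1.0e-13). Psmb5 differed by -0.72 ± 0.087 (2.6e-12). Psmd1 stood at -0.88, Psma8 at -0.92 and Psme4, the PA200 activator, at 0.61. Psmb6 (-0.29, adjusted p = 0.0018) and Psmb7 (-0.46, 1.7e-06) did not pass the fold threshold.

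Between 8 and 12 h of OHT in IL3 the early decrease was partly undone. Psmb8, Psmb9 and Psme1 were the 3 genes called higher and 0 were called lower, against 3.81% and 2.50% of all genes tested (unadjusted p below 0.05: 6 higher and 14 lower, and edgeR and DESeq2 also called 3). Psmb8 rose to 558, 517 and 560 (log2 fold change 0.78 ± 0.074, adjusted p = 1.3e-16), Psmb9 to a lowest library of 200.2 (0.75 ± 0.092, 2.3e-11) and Psme1 to 675, 728 and 757 (0.81 ± 0.069, 5.6e-19). All 3 libraries of each gene at 12 h lay above those at 8 h. Psme1 had then passed its level at 0 h, and Psmb8 and Psmb9 had not. The log2 fold changes of Psmb5, Psmb6, Psmb7 and Psmb10 over these hours were -0.11, 0.03, -0.03 and -0.24. In GCSF, limma called 0 genes in either direction over the same step, against 2.25% and 0.425% of all genes tested (unadjusted p below 0.05: 4 higher and 20 lower; edgeR and DESeq2 called 0). There Psmb8, Psmb9 and Psmb10 stood at 0.28, 0.30 and 0.01, and Psmb5, Psmb6 and Psmb7 at -0.13, -0.06 and -0.14.

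**Figure D3:**
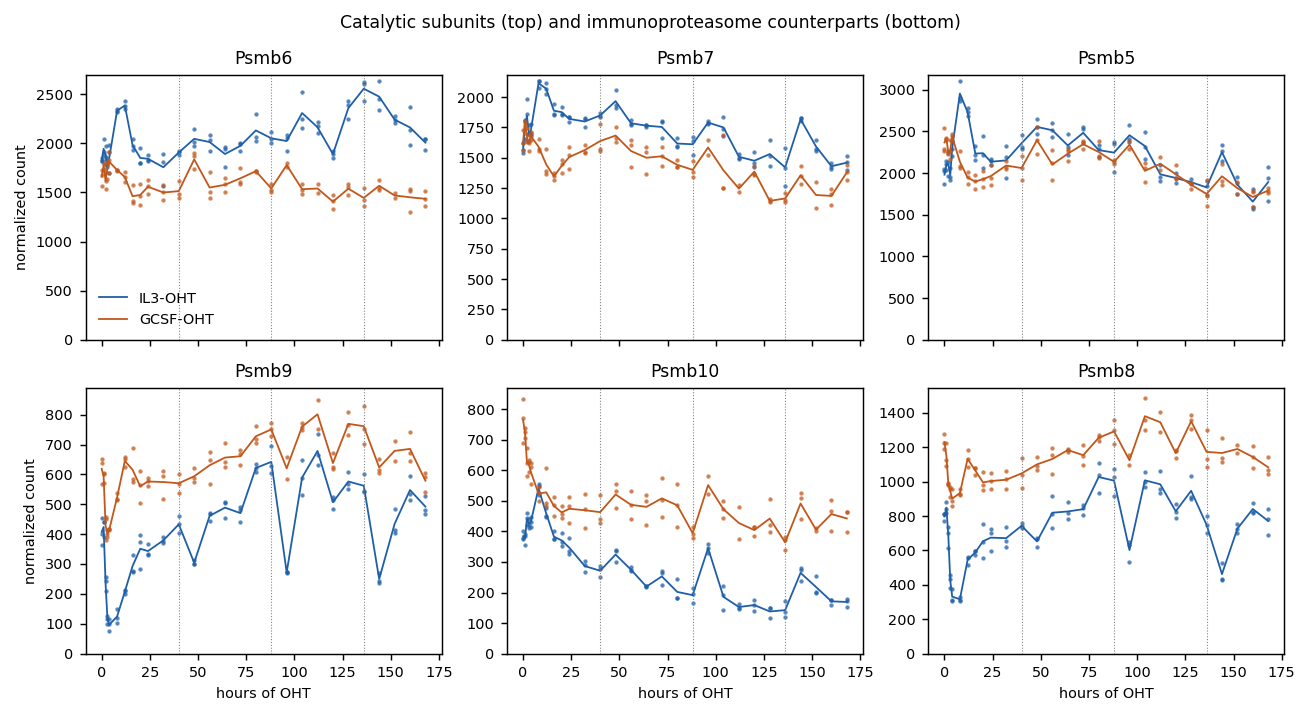
Normalized counts of Psmb6, Psmb7 and Psmb5 (top) and of their immunoproteasome counterparts Psmb9, Psmb10 and Psmb8 (bottom) against hours of OHT, with each library as a point, the group mean as a line, IL3 in blue, GCSF in orange and dotted lines at the additions of fresh OHT. Psmb8 and Psmb9 drop in IL3 within 4 h and again at 96 and 144 h, and the GCSF means of Psmb8 and Psmb9 lie above those of IL3 at every time.

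Psmb8 and Psmb9 then climbed in IL3 over several days. Outside 96 and 144 h, Psmb8 ran from 316 ± 11.3 at 8 h to 1027 ± 86.4 at 80 h (SD, n = 3), and Psmb9 from 97.2 ± 19.1 at 4 h to 679 ± 52.8 at 112 h, a ratio of 6.98 between its highest and lowest mean. Psmb10 took the reverse course and ran from 541 ± 19.01 at 8 h to 137.8 ± 19.7 at 128 h. Psme1 rose from 341 ± 38.7 at 4 h to 1013 ± 53.3 at 72 h. In GCSF the same ratios were 1.53 for Psmb8, 2.00 for Psmb9, 2.10 for Psmb10 and 1.69 for Psme1. The highest GCSF means of Psmb8 and Psme1 were those of 104 h, where replicate 3 was unlike its mates over all genes. Across the 44 genes outside the immunoproteasome with a mean of at least 10, which include Psme1, Psme2 and Psma8, the median ratio of highest to lowest mean was 1.78 in IL3 and 1.42 in GCSF. In IL3, 22 of these 44 were highest at 8 h and 11 lowest at 136 h, and in GCSF 14 were highest at 1 h and 14 lowest at 136 h. The share of all genes with these extreme times was not computed, so nothing particular to the proteasome genes is read from these counts.

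The libraries taken 8 h after fresh OHT and medium (48, 96 and 144 h) were set against the mean of their neighbours in time. In IL3 at 96 h, 5 genes were called higher and 3 lower, against 9.36% and 8.17% of all genes tested. Psmb9 read 273, 269 and 274 at 96 h, between 628, 603 and 695 at 88 h and 648, 589 and 531 at 104 h (log2 difference -1.17 ± 0.079, adjusted p = 6.8e-27). Psmb8 stood at -0.74 ± 0.067 (6.1e-19) and Psme1 at -0.65 ± 0.061 (9.4e-18), the latter lost without replicate 2. Psmb10 moved in the opposite direction, with 330, 345 and 360 at 96 h between neighbours whose highest library read 221 (0.88 ± 0.095, 9.7e-15). Psme3, the nuclear activator of the core, was higher by 0.79 ± 0.037 (9.9e-40) and Psmg3, an assembly chaperone, by 0.73 ± 0.11 (3.5e-09), followed by Psmd7 (0.66) and Psmc4 (0.65). None of the libraries of Psmb8, Psmb9 or Psmb10 at 96 h reached those of either neighbour. For Psmb5, Psmb6 and Psmb7 the differences were 0.11, -0.10 and 0.09.

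At 144 h in IL3, 4 genes were called higher and 2 lower, against 8.59% and 6.76% of all genes tested. Psmb9 read 236, 242 and 271 between 544, 540 and 603 at 136 h and 485, 405 and 412 at 152 h (log2 difference -0.98 ± 0.079, adjusted p = 1.6e-21). Psmb8 read 428, 431 and 527 between 700, 801 and 748 and 726, 699 and 755 (-0.68 ± 0.067, 1.3e-16). Psme3 was higher by 0.65. Psmb10 (0.59), Psmc4 (0.66) and Psmg3 (0.73) were also called higher, but lost their calls when 152 h alone was the neighbour, a setting added after the values had been seen that called 1 gene higher and 3 lower. Psmb10 lost its call without replicate 1 as well and Psmg3 without replicate 2. The differences of Psmb5, Psmb6 and Psmb7 were 0.29, 0.05 and 0.28. Fresh OHT, the fresh medium given with it and plate cannot be told apart in these libraries.

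At 48 h, a comparison added after the values had been seen, limma called 0 genes in IL3 (0.757% and 0.843% of all genes tested called higher and lower; unadjusted p below 0.05: 15 higher and 3 lower; edgeR and DESeq2 0). Psmb9 and Psmb8 had log2 differences of -0.55 (adjusted p = 4.2e-08) and -0.26 (0.0034) there, and Psmb10 0.25 (0.063). There Psmb5, Psmb6 and Psmb7 stood at 0.07, 0.06 and 0.11. In GCSF limma called 0 genes at 48 h (0.161% and 0.189% of all genes tested; unadjusted 14 higher and 1 lower), 0 at 96 h (1.12% and 3.53%; 21 and 2) and 0 at 144 h (0.774% and 1.07%; 11 and 2), and edgeR and DESeq2 called 0 at all 3 times. At 48 h in GCSF Psmb8, Psmb9 and Psmb10 stood at 0.02, -0.01 and 0.14, and Psmb5, Psmb6 and Psmb7 at 0.20, 0.26 and 0.08. In GCSF at 96 and 144 h, Psmb8 stood at -0.25 and -0.02, Psmb9 at -0.29 and -0.20 and Psmb10 at 0.35 both times. GCSF-OHT 96h has 2 libraries, and replicate 3 of its neighbour at 104 h was unlike its mates over all genes. Without replicate 3, 0 genes were called at 96 h as well. Of the constitutive subunits, Psmb5 stood at 0.17 and 0.14 at these times, Psmb6 at 0.21 and 0.11 and Psmb7 at 0.19 and 0.20.

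The difference of these contrasts between the cytokines (GCSF minus IL3, also added) was called higher for Psmb9 at 96 h and for Psmb8 and Psmb9 at 144 h, and lower for Psmg3 at both, against 2.83% and 4.93% of all genes tested at 96 h and 4.06% and 5.60% at 144 h. Upper-quartile scaling called 1 higher and 3 lower at 144 h, and edgeR 2 lower in place of 1 at 96 h. The call of Psmg3 at 144 h was lost without replicate 2 and without replicate 3. For Psmb9 it was 0.89 ± 0.12 at 96 h (adjusted p = 1.6e-09) and 0.78 ± 0.11 at 144 h (1.1e-08). For Psmb8 it was 0.50 at 96 h, short of the fold threshold, and 0.66 at 144 h, a call lost under upper-quartile scaling and without replicate 1. Psmb10 differed by -0.53 and -0.24, neither called.

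**Figure D4:**
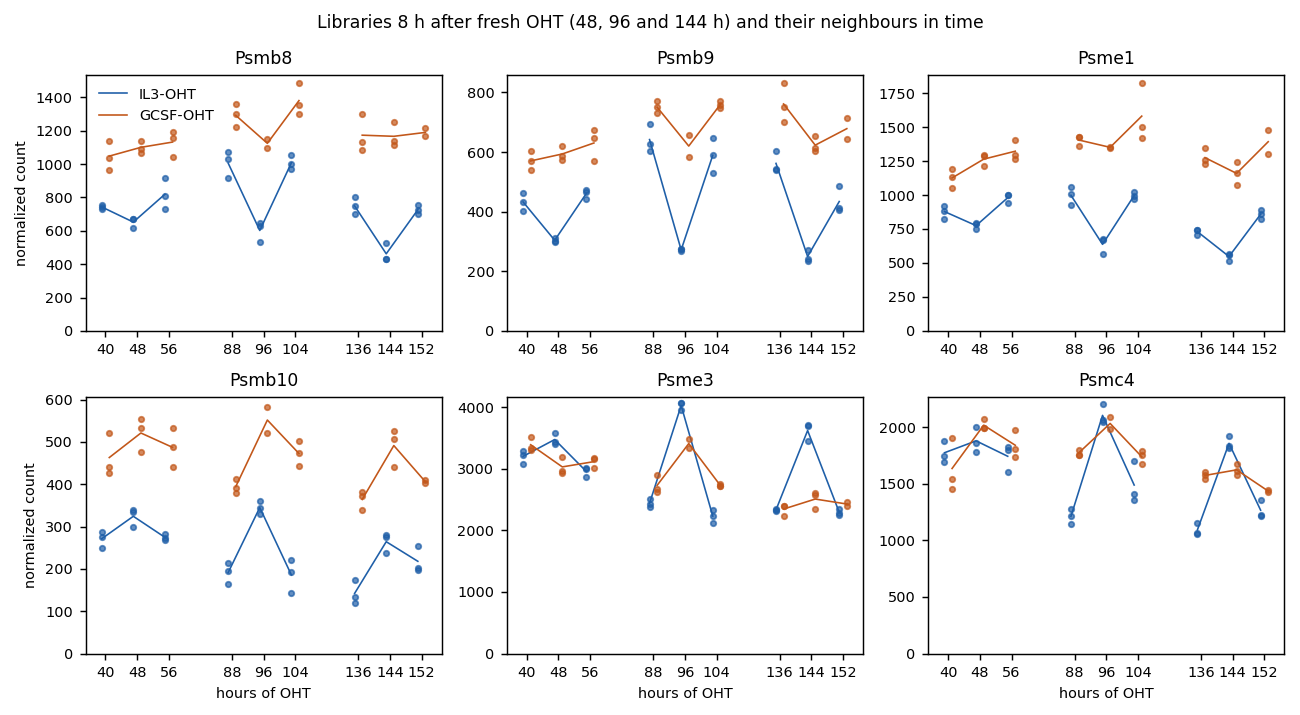
Normalized counts of Psmb8, Psmb9, Psme1, Psmb10, Psme3 and Psmc4 at 48, 96 and 144 h (8 h after fresh OHT) and at the time points before and after, with each library as a point and lines through the group means, IL3 in blue and GCSF in orange. In IL3 the middle points of Psmb8, Psmb9 and Psme1 dip at 96 and 144 h and those of Psmb10, Psme3 and Psmc4 rise.

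Over the whole course in IL3, from 0 to 168 h, 0 genes were called higher and 4 lower by limma, against 10.2% and 15.2% of all genes tested (unadjusted p below 0.05: 6 higher and 27 lower), whereas edgeR and DESeq2 each called 1 higher and 3 lower. Psmb10 fell from 400, 374 and 379 to 173.4, 153.7 and 180 (log2 fold change -1.18 ± 0.11, adjusted p = 7.0e-18) with no overlap. Psmg3 fell by 0.66 on the log2 scale and Psmd7, the partner of Psmd14 in the lid, by 0.65. Psmb11 (-1.69) changed by a few reads and lost its call with edgeR and DESeq2 among others, and Psmg3 lost its call without replicate 1. Psmb8 (-0.05, adjusted p = 0.59) and Psmb9 (0.28, 0.0081) were not called and had come back near their level of 0 h, with Psmb8 at 785, 690 and 839. The constitutive subunits Psmb5, Psmb6 and Psmb7 ended at -0.07, 0.13 and -0.11.

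In GCSF from 0 to 168 h, 0 genes were called higher and 3 lower by limma, against 12.1% and 12.6% of all genes tested (unadjusted p below 0.05: 1 higher and 33 lower, edgeR and DESeq2 also 3 lower, and 5 called without replicate 2). Psma8 fell from 202, 234 and 229 to 87.6, 92.6 and 86.4 (log2 fold change -1.31 ± 0.13, adjusted p = 1.5e-15), Psmb10 from 690, 771 and 833 to 465, 398 and 465 (-0.79 ± 0.11, 4.9e-10) and Psmd3, a subunit of the lid, from 3266, 3161 and 3404 to 2068, 1951 and 2246 (-0.65 ± 0.063, 4.3e-17). The 0h and 168h libraries of these 3 genes did not overlap. The log2 changes of Psmb5, Psmb6 and Psmb7 were -0.40, -0.21 and -0.25, and those of Psmb8 and Psmb9 -0.18 and -0.10, none called. Only Psma8 was called in the test of whether the change to 168 h differed between the cytokines (log2 difference -1.27 ± 0.19, adjusted p = 9.6e-09; 0 genes called higher and 1 lower, against 14.5% and 11.3% of all genes tested; unadjusted p below 0.05: 7 higher and 15 lower, edgeR and DESeq2 called 1, and 2 were called without replicate 2). For Psmb5, Psmb6, Psmb7, Psmb8, Psmb9 and Psmb10 that difference was -0.33, -0.34, -0.14, -0.13, -0.37 and 0.40.

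From undifferentiated cells to GCSF-OHT 168h, 2 genes were called higher and 4 lower, against 15.5% and 23.6% of all genes tested. Psme1 rose to 1216, 1244 and 1254 (log2 fold change 1.22 ± 0.069, adjusted p = 6.7e-33) and Psme2 to 1109, 1192 and 1237 (0.70 ± 0.070, 9.2e-17). Psmd8 fell to 1482, 1402 and 1504 (-0.96 ± 0.054, 4.0e-33), followed by Psmf1 (-0.70), Psma8 (-0.67, lost without replicate 2) and Psmd3 (-0.65). Upper-quartile scaling called 10 genes here, 2 higher and 8 lower, and 5 from GCSF 0h to 168h, all lower. Psmb8 and Psmb9 stood at 0.44 and 0.51 and Psmb10 at 0.20, none past the fold threshold, and Psmb5, Psmb6 and Psmb7 at -0.15, -0.35 and -0.19. The comparisons that start from IL3 0h share its 3 libraries.

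Averaged over the 25 time points that both courses hold, the 3 immunoproteasome genes and Psme1 were higher in GCSF than in IL3. They were the 4 genes called higher, and 0 were called lower, against 9.34% and 15.1% of all genes tested, while edgeR called 4 and DESeq2 5. By limma at an unadjusted p below 0.05, 16 were higher and 30 lower, for which no share of all genes was computed. The log2 differences were 0.88 ± 0.022 for Psmb10 (adjusted p = 3.4e-67), 0.73 ± 0.019 for Psmb9 (1.2e-66), 0.70 ± 0.014 for Psme1 (2.1e-77) and 0.66 ± 0.015 for Psmb8 (1.0e-71). These standard errors treat time points as fixed and reflect the spread between libraries of a time point. Psmb6 stood at -0.37, Psmb7 at -0.24 and Psmb5 at -0.08, on the side of IL3 but not past the fold threshold. The difference was present before OHT, as the 3 genes already stood at 1231, 619 and 765 (means of Psmb8, Psmb9 and Psmb10) in GCSF 0h against 797, 407 and 385 in IL3 0h.

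Tests of any change over a course called 20 of the 49 genes in IL3, against 69.7% of all genes tested, and 12 in GCSF, against 47.7%. By the direction of their largest change 8 of the 20 were higher and 12 lower, a split of 4 and 16 under upper-quartile scaling and 10 and 11 with edgeR, which moved the median over all genes by more than 0.1 for this measure. The size attached to each gene is its largest log2 difference from 0 h in either direction. In IL3 the largest were those of Psmb9 (-2.07), Psmb11 (-2.04), Psmb10 (-1.48), Psmb8 (-1.33), Psmg3 (-1.24), Psme1 (0.93), Psmd1 (0.90) and Psme2 (0.73). In GCSF they were those of Psma8 (-1.46), Psmb10 (-1.07) and Psmg2 (-0.92), another assembly chaperone. None of Psmb1 to Psmb7 was called in either course, with Psmb5 at 0.58 in IL3 and -0.47 in GCSF, Psmb6 at 0.48 and -0.24 and Psmb7 at 0.42 and -0.51. Psme2b was the 1 gene of the GCSF course whose largest difference was an increase (its group at 48 h read 9.30 to 15.4), and with edgeR its largest difference was a decrease. Psmb11 in IL3 likewise turned to an increase with a pseudocount of 5.

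Some genes of the cap reached their extremes at IL3-OHT 136h, a description with no test. Psmd8 read 5014, 4453 and 4645 at 136 h against 2955, 2887 and 2959 at 120 h, and Psmd4, a ubiquitin receptor of the cap, 4636, 4475 and 4183 against 2838, 2868 and 3063. Psmd1 was at its lowest there among the IL3 means, at 1096. At 128 h Psmd8 (4011, 4116 and 3520) and Psmd4 (3787, 4050 and 3665) lay between, and at 152 h their means were back at 2488 and 2953. The libraries of 120 h carry names of a different series from all other libraries, for a reason the labels do not give. Without IL3-OHT 136h, 16 instead of 20 genes were called for any change in IL3, with Psmc3, Psmc4, Psmd4 and Psmd8 lost.

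The balance between an immunoproteasome gene and the subunit it replaces was followed as the log2 ratio of their normalized counts within each library. For Psmb8 over Psmb5 the mean ratio in IL3 was -1.31 at 0 h and -3.22 ± 0.0136 at 8 h (SD, n = 3), its lowest, a difference of -1.91. For Psmb9 over Psmb6 it was lowest at 4 h, at -4.26 ± 0.174, a difference of -2.09 from 0 h. For Psmb10 over Psmb7 the ratio changed by 0.07 from 0 to 8 h and by -1.07 from 0 to 168 h. After GCSF pre-treatment, which also withdrew IL3, the 3 ratios were higher by 0.37, 0.75 and 0.93. With 3 libraries against 3, an exact two-sided permutation test cannot go below 0.1, and it gave 0.1 for each of these differences, the smallest p it allows. From 0 to 168 h in IL3 it gave 1 for Psmb8 over Psmb5 (difference 0.02) and 0.3 for Psmb9 over Psmb6 (0.14).

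Psmb9 and Tap1 are read in opposite directions from RefSeq starts with 225 bases between them (GRCm38.p6, chromosome 17, starts at 34187330 and 34187556). In GENCODE vM21 Psmb9 reaches 34187764, past this start of Tap1, so the gap depends on the annotation. Psmb8 follows in the same MHC region at 34197721 to 34201454 (GENCODE vM21). Over the means of 54 groups Pearson's r between log2 values was 0.960 for Psmb9 and Tap1 and 0.948 for Psmb8 and Psmb9. With Psmb10, whose gene lies on chromosome 8 at 105935735 to 105938444, the r of Psmb9 was -0.0733. With Psme1 and Psme2, whose genes lie on chromosome 14, it was 0.871 and 0.747. With Tap2, Tapbp and B2m it was 0.827, 0.478 and -0.0947. A link between the place of a gene and its r was not tested. These r values describe points that share libraries and size factors. Bases upstream of RefSeq starts (GRCm38.p6) were searched on both strands for 4 motifs: the interferon-gamma-activated GAS element (TTCNNNGAA), the ISRE of interferon regulatory factors (GAAANNGAA), a PU.1 box (GAGGAAGT) and the ARE of Nrf factors (TGACNNNGC). Within 250 bases, 41 of the 49 genes had a promoter in the table. A GAS letter match was found in 2 of the 41 (4.88%, against 7.02% of all promoters), Psmb8 and Psmg1, an ISRE match in 3 (7.32% against 7.13%), a PU.1 box in 3, Psma6, Psmc1 and Psmc2 (7.32% against 2.44%), and an ARE match in 5 (12.2% against 10.2%), Psmb5, Psmb6, Psmc6, Psmd12 and Psmd9. A match is a match of letters, not a site.

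The stretches below show, 5′ to 3′ on the strand of the gene and with motif matches in capitals, the GAS match of Psmb8 at chr17:34198088-34198116 (plus strand), whose match starts 97 bases before the RefSeq start and lies within an annotated exon of Psmb8 (GENCODE vM21), and the bases outside every annotated exon for Psmb10 at chr8:105938445-105938642 (minus strand), in which none of the 4 motifs was found. They also show Psmb5 at chr14:54618023-54618245 (minus strand) and Psmd12 at chr11:107479278-107479483 (plus strand), 2 genes that hold an ARE match. Their r with the mean profile described below was 0.873 and 0.920. For Psmb6, Psmc6 and Psmd9, which also hold a match, it was 0.463, 0.539 and 0.255. A link between match and course was not tested. They are printed because Psmb8 and Psmb10 moved in opposite directions in IL3 and because Psmb5 is the subunit Psmb8 replaces.
Psmb8: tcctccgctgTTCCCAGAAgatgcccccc
Psmb10: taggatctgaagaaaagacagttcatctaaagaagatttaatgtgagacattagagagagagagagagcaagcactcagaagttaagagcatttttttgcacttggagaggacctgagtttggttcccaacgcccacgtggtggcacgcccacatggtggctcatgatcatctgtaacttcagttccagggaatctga
Psmb5: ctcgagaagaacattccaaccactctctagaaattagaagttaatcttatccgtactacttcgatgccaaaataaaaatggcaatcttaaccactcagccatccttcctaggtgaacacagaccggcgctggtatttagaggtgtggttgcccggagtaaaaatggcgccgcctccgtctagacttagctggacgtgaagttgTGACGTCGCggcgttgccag
Psmd12: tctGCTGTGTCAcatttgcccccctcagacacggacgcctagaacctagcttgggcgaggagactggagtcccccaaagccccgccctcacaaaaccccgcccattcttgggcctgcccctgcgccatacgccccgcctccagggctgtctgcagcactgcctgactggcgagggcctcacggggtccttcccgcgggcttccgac

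The genes of the complex did not all follow one course. Each gene was set against the mean standardized profile of the 44 genes outside the immunoproteasome with a mean of at least 10, itself left out. Over the 54 group means, Psmb7 (r = 0.929), Psmd12 (0.920) and Psmd14 (0.899) were closest to that profile. Psmb8 (-0.614), Psmb9 (-0.653), Psme1 (-0.524) and Psme2 (-0.400) ran against it, although Psme1 and Psme2 are among the 44. Psmb10 had an r of 0.200 over all groups but 0.821 within IL3 and 0.784 within GCSF. Psmd8 and Psma7 had r values of -0.664 and -0.618 in IL3 and of 0.50 and 0.716 in GCSF. Of 12249 other genes ranked, the 10 most like the complex were Atp5b (0.920), Ybx3 (0.913), Ahcy (0.909), Vcp (0.908), Fbl (0.906), Kars (0.90), Eif5a (0.898), Cad (0.895), Samm50 (0.894) and Cct3 (0.893). Vcp, the segregase that delivers ubiquitinated proteins to the proteasome, was the 1 gene of the wider ubiquitin list among them.

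That list held 24 genes of ubiquitin supply, shuttling and proteasome regulation, of which 23 were in the table. Over the first 8 h in IL3, 1 of the 23 was called higher, Ube3c, a ligase that binds the proteasome (log2 fold change 0.87), and 1 lower, the polyubiquitin gene Ubb (-0.63), against 11.8% and 17.9% of all genes tested, with a median of 0.19 against -0.08 over all genes tested. GCSF pre-treatment gave 1 higher, the deubiquitinase Uchl5 (0.74), and 4 lower, among them Rps27a (-0.78), ubiquitin fused to a ribosomal protein, and Nfe2l1 (-0.74), which encodes a transcription factor known to induce proteasome genes (all genes tested: 13.0% and 20.7%). Over the shared time points 0 were higher and 2 lower in GCSF, Rps27a (-0.68) among them (9.34% and 15.1%). From undifferentiated cells to GCSF-OHT 168h 0 were called higher and 7 lower (15.5% and 23.6% of all genes), among them Rps27a (-1.08), Adrm1 (-0.78), Ubqln2 (-0.74), Akirin2 (-0.63) and Txnl1 (-0.58). In IL3 to 168 h 0 were higher and 2 lower, the ubiquitin receptor Adrm1 (-0.74) and the shuttle Ubqln2 (-0.65), against 10.2% and 15.2% of all genes. In GCSF to 168 h 2 were higher, Nfe2l2 (0.64) and Ecpas (0.63), and 1 lower, against 12.1% and 12.6%. In the interaction at 8 h Akirin2 (0.75) was called higher and Ube3c (-0.78), Rad23b (-0.60) and Uchl5 (-0.60) lower, 1 and 3 of the 23 against 16.0% and 11.4% of all genes. In the interaction at 168 h 1 was called higher, Nfe2l2 (1.06), and 1 lower, against 14.5% and 11.3%. Ecpas was the 1 gene called at 96 h in IL3 (-0.62, with 8.17% of all genes lower), and none of the 23 was called at 144 h in IL3 or over 8 to 12 h in either cytokine. These counts describe the list, and nothing particular to it is read from them.

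The 10 genes of antigen processing moved in part with Psmb8 and Psmb9. Over the first 8 h in IL3 Tap2 (log2 fold change -1.40), the class I gene H2-K1 (-1.06), the peptide loader Tapbp (-0.99), Tap1 (-0.84) and B2m (-0.73) were the 5 called lower and 1 was called higher, against 17.9% and 11.8% of all genes tested, with a median of -0.63 over the 10. Tap1 was called higher from 8 to 12 h in IL3 (0.59), with 3.81% of all genes called higher. In IL3 it was called lower at 96 h (-0.75) and 144 h (-0.91), with Tap2 at -0.60 and -0.59 and H2-K1 at -0.67 at 96 h. Of the list 3 were lower at 96 h and 2 at 144 h, against 8.17% and 6.76% of all genes. GCSF pre-treatment gave 4 higher, among them the interferon-response factor Irf1 (1.72), Erap1 (1.14), which trims peptides, and Tap1 (0.73), and 1 lower, B2m (-0.69), against 13.0% and 20.7% of all genes. Over the shared time points 5 were higher in GCSF and 0 lower, against 9.34% and 15.1%, among them Irf1 (1.15), Erap1 (0.91), Nlrc5 (0.70) and Tap1 (0.59). In the interaction at 8 h 5 were called higher, H2-K1 (1.12), Tap2 (0.84), B2m (0.80), Tapbp (0.79) and Tap1 (0.66), and 2 lower, Erap1 (-0.80) among them, against 16.0% and 11.4%. From 0 to 168 h in IL3 2 were higher, Irf1 (0.88) among them, and 0 lower, against 10.2% and 15.2%. None of the 10 was called from 0 to 168 h in GCSF, against 12.1% higher and 12.6% lower of all genes. In the interaction at 168 h H2-K1 (0.62) was called higher and Irf1 (-0.61) lower, against 14.5% and 11.3%. The difference at 144 h was called for Tap1 (0.93), with 4.06% of all genes called higher. From undifferentiated cells to GCSF-OHT 168h 5 were higher and 0 lower, against 15.5% and 23.6%, among them Irf1 (2.00), Erap1 (1.08), Nlrc5 (0.84) and Tap1 (0.61). The markers of differentiation moved as well: Itgam went from 576 in IL3 0h to 7612 at IL3-OHT 168h and 4154 at GCSF-OHT 168h, and their part in the proteasome values was not tested.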

How the data were processed

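RNA-Seq libraries of PUER cells (165 samples in 56 groups) were analysed from 1 table of the whole series. The authors mapped reads to GRCm38 with Salmon and deposited gene counts divided by DESeq2 median-of-ratios size factors, a signal with no log or length scaling. Tool versions are not given in the sources used here. Whole reads could be recovered from 100.0% of the values (within 1e-06 reads). Samples were grouped by their labels, and no replicate pair looked like a library deposited again (chi-square per gene at least 2.25). The median over the pairs was 5.73. Replicate 3 of GCSF-OHT 104h, the deepest library, was the most unlike its mates (47.5 and 68.5), and it was kept.

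The table was fitted with limma 3.58.1 (R 4.3.3) on log2(value + 1), with 1 mean per group and a trended prior, for genes with a value of at least 5 in 1 library. P-values were adjusted by Benjamini-Hochberg over all genes tested, 17414 in the fit without IL3-OHT 96h and 144h and 17439 in the fit of all groups, which gave the comparisons with neighbouring times. A call needs an adjusted p below 0.05 and an absolute log2 fold change over 0.58. A fold change on this scale understates that of low genes. edgeR 4.0.16 and DESeq2 1.42.0 on recovered reads, upper-quartile scaling, pseudocounts of 0.5 and 5, other filters, a replicate block and leaving out each replicate were alternatives. limma was tested on simulated data. Replicate numbers do not pair samples (correlations of deviations from -0.0802 to 0.0457). Ratios within a library used exact two-sided permutation tests (scipy 1.17.1). Floors are 3 reads and cover counting error only.

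Named were the catalytic subunits and their counterparts in each comparison, the 3 genes that rose and the 3 that fell most among those called, and called genes of the other lists. Further genes were chosen after their values were seen. The members and lists were chosen with earlier results of these data known. Promoter letters are from RefSeq (GRCm38.p6). Some genes of the marker and pathway lists are not reported here.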

Additional observations from a re-analysis of the deposited data

Results flagged for a closer look

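The change over the first 8 h of OHT differed between GCSF and IL3 for 17 proteasome genes by the test of the difference itself (limma, log2 change in GCSF minus that in IL3, called at an adjusted p below 0.05 and an absolute log2 difference over 0.58). It was positive for Psmb9 (1.48), Psmb8 (0.94) and Psme4 (0.61). It was negative for Psmb10 (-1.03), Psma8 (-0.92), Psmd1 (-0.88), Psmg3 (-0.81), Psmd14 (-0.79), Psmd7 (-0.77), Psmc5 (-0.76), Psmd3 (-0.76), Psmb5 (-0.72), Psme3 (-0.72), Psmc4 (-0.69), Psmg4 (-0.68), Psma4 (-0.59) and Psmg1 (-0.58). The call of Psmg1 was lost under 4 alternatives, that of Psma4 under upper-quartile scaling and without replicate 1, and that of Psmc4 without replicate 3.

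The change from 0 to 168 h differed between the cytokines for Psma8 (-1.27). At 96 h, against neighbouring times, the difference between the cytokines was called for Psmb9 (0.89) and Psmg3 (-0.64), and at 144 h for Psmb9 (0.78), Psmb8 (0.66) and Psmg3 (-0.63). The comparisons at 8, 96 and 144 h between cytokines were chosen after the data had been seen.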

How the results depend on the processing

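Of 244 counts of called proteasome genes under alternative settings, 233 stayed within 1.5 times the value reported. Of 1890 values of single genes 1851 kept their call or their lack of one, 28 lost a call, 9 gained one and 2 turned. Direction was not compared for values called neither in the main setting nor in the alternative. By adjusted p alone, without the fold threshold, 42 genes were called from 0 to 8 h in IL3 and 38 in the interaction at 8 h. From 0 to 8 h in GCSF a pseudocount of 5 and edgeR each called 0 genes, and leaving out 1 replicate at a time gave 0 to 2. From 0 to 168 h in GCSF upper-quartile scaling called 5 and leaving out 1 replicate gave 3 to 5. From undifferentiated cells to GCSF-OHT 168h upper-quartile scaling called 10. The interaction at 168 h ran from 1 to 2 when 1 replicate was left out. At 48 h in GCSF a pseudocount of 5 called 1. The largest change of Psmb11 in IL3 turned to 1.39 with a pseudocount of 5, and that of Psme2b in GCSF to -4.55 with edgeR. Psmb11 was at 3 reads or fewer in 85 libraries, and Psme2b never read above 16.9. With a replicate block the counts were those reported, for example 7 genes for GCSF pre-treatment, and the block changed no count of calls. The cause of these shifts was not tested.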
